A study of Mus musculus with 8 samples.

Results

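Interferon regulatory factors are transcription factors that share a DNA-binding domain and read interferon response elements, and interferon beta is the type I interferon that macrophages secrete after sensing bacteria. A set of 9 genes of this system, chosen by name, was followed in RAW264.7 cells, a mouse macrophage line: 7 interferon regulatory factors (Irf1, Irf2, Irf3, Irf4, Irf5, Irf8 and Irf9), the cofactor gene Irf2bp2, and Ifnb1, which encodes interferon beta. They are 9 of the 23141 genes in the count table, and each has a row. RNA had been sequenced from 1 unstimulated sample (0 min) and from 7 samples stimulated for 15, 30, 45, 60, 75, 90 or 120 min with 100 ng/ml LPS, the lipopolysaccharide of the bacterial outer membrane, here from E. coli O111:B4. The 0 min sample is labelled untreated, and all 8 samples are the same cell line with no genetic change named.

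There was a single library at every time. Differences between times therefore have no replicate check, no p-value is given for them, and every interval covers counting error only. No trend over the 8 libraries was fitted. All ratios to 0 min share the same unstimulated library. The libraries held 100229997 to 159036125 counts. A count of 0, taken as 3 counts, therefore allows up to 0.0189 to 0.0299 cpm (counts scaled to the library total). The ribosomal RNA precursor Rn45s took 8.18% to 9.11% of the counts at 0, 30, 60 and 120 min, and 13% to 20.5% at 15, 45, 75 and 90 min, and the libraries of these 2 sets are therefore also compared within each set. All 7 macrophage markers were present, with a summed normalized read count of 680970 to 776261. At 120 min Cd14 was 3.66-fold higher and Fcgr1 had a ratio of 0.381, and the other macrophage markers did not pass 2-fold. The 11 markers of other cell types summed to 299.9 to 427.4, with 9 of them under 20 in every library and Ncr1, Col1a1 and Epcam, which mark NK cells, fibroblasts and epithelium, at 0 throughout. The dendritic cell markers Siglech (158 to 250.1) and Zbtb46 (105.6 to 203.6) made up most of that sum. RNA from whole cultures was measured, so fewer cells expressing a gene and less RNA per cell cannot be told apart.

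LPS is sensed by the receptor TLR4. Its adaptor TRIF leads through the kinases TBK1 and IKK epsilon to phosphorylation of IRF3, which together with NF-kappaB and AP-1 factors turns on Ifnb1, while the adaptor MyD88 leads to IRF5. Secreted interferon beta binds its receptor on the same and neighbouring cells and assembles ISGF3, a complex that contains STAT2 and IRF9 and induces interferon-stimulated genes.

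The 9 genes followed different courses. Ifnb1 went from a count of 0 to a normalized count of 338.8 at 120 min, and Irf4 was 2.86-fold higher at that time. Irf1 was lower, at 0.219 of its unstimulated level at 90 min, and Irf2bp2 was at 0.429 at 120 min. Irf3 and Irf5, which carry the signal from the receptor, stayed within 1.12-fold and 1.11-fold over all 8 libraries.

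**Figure D1:**
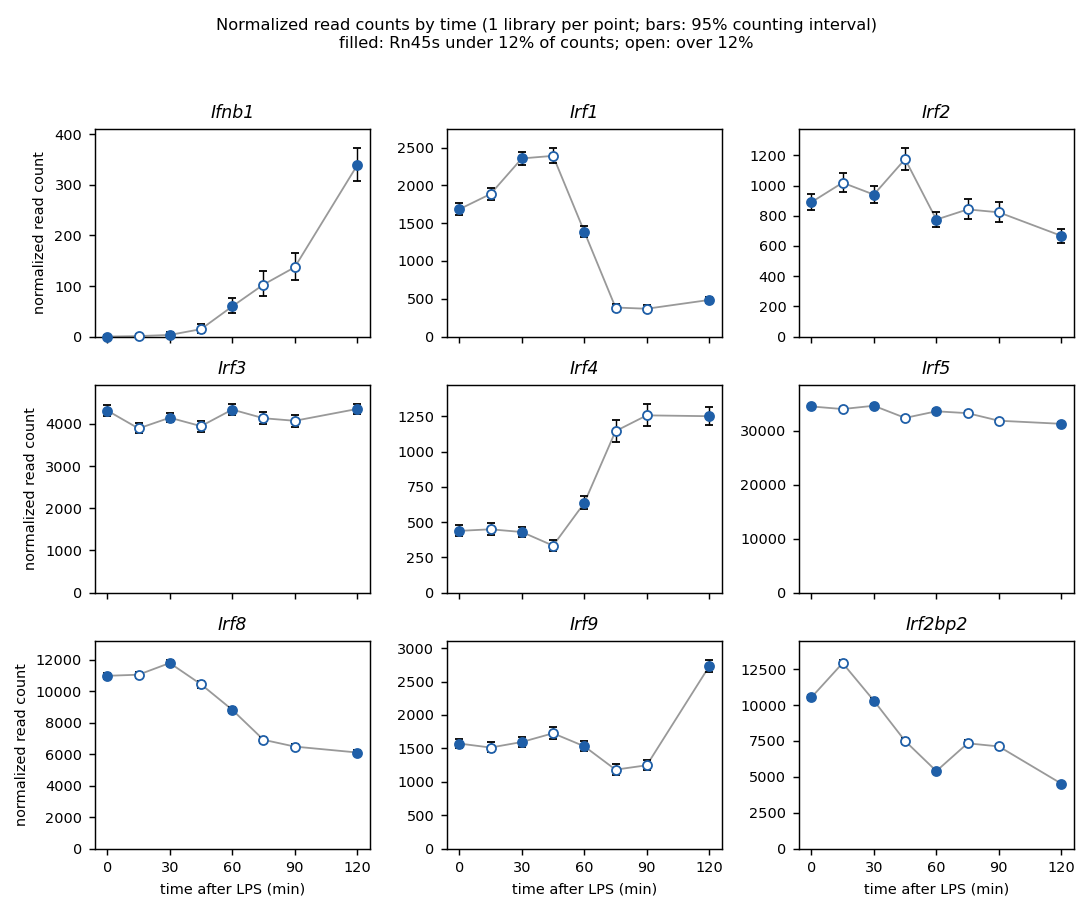
Normalized read counts (vertical axis, from 0) of the 9 genes against the time after LPS in minutes, with 1 library per point and bars for the 95% counting interval. Filled points are libraries with 8.18% to 9.11% of counts on Rn45s and open points those with 13% to 20.5%; Irf1 peaks at 2390 and reaches 368.2 at 90 min, while Irf4 passes from 333.2 at 45 min to 1258 at 90 min.

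Ifnb1 (chr4:88522025-88522794, GRCm38) is the cytokine of the group. From 0 to 120 min, the libraries held 0, 1, 4, 13, 67, 73, 108 and 418 reads of it. Divided by the size factor of each library, the values were 0, 0.9516, 3.275, 14.68, 59.66, 102.8, 137.1 and 338.8 normalized counts. The values went from the limit of detection to 338.8, with the highest at 120 min. Taking 3 counts as what a count of 0 allows, the 45 min library was at least 5.72-fold higher than the unstimulated one, the 60 min library at least 23.2-fold, the 90 min library at least 53.4-fold and the 120 min library at least 132-fold. These limits take the later counts as read and do not cover their counting error. Between neighbouring libraries the ratio was 4.06 from 45 to 60 min (95% interval 2.22 to 8.02), 1.33 from 75 to 90 min (0.982 to 1.82) and 2.47 from 90 to 120 min (2 to 3.08), so that the interval of the step from 75 to 90 min includes 1. The same holds from 15 to 30 min (0.341 to 170), and the counts at 0 and 15 min were both at or under 3, so no order is given among the earliest libraries.

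The sequence upstream of Ifnb1 is shown because several factor motifs lie in it close together. The 250 bases before the RefSeq start (GRCm38.p6, chr4:88522795-88523044, minus strand) are given 5′ to 3′, with matches in capitals.
Ifnb1: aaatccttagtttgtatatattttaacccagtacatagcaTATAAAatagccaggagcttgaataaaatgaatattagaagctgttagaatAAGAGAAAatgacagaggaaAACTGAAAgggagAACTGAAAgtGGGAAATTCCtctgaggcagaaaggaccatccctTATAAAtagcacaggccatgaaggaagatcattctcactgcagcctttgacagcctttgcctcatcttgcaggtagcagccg
The capitals mark, in order, a match to TATAAA, the letters of a TATA box, 210 bases before the start. Next come 3 matches to AANNGAAA, the nearest at 126 bases before the start. The capitals then mark a kappaB motif at 116 to 107 bases and another TATAAA at 82 bases. All distances are to the RefSeq start, and which TATAAA serves as the TATA box was not tested. AANNGAAA is a shorter interferon response core that was added to the search later. Both strands were searched, in windows from 250 bases before to 50 bases after each start. Of 32851 RefSeq promoters of that length, 23.9% hold AANNGAAA, 8.46% the kappaB motif and 13.6% TATAAA. The longer core GAAANNGAA, which overlaps the shorter one and is held by 8.56% of promoters, was not matched in this window. The AP-1 motif TGANTCA, held by 7.81% of promoters, was also searched and not matched. The Ifnb1 mRNA also carried the densest AU-rich pentamers of the 9 genes, with 4 AUUUA in a 3′UTR of 201 bases (19.9 per kb). Over 11276 expressed genes the median was 1.25 per kb and the third quartile 2.58 per kb, and 67.3% had at least 1. AU-rich elements of this kind are known from short-lived cytokine mRNAs. The 30 bases at positions 111 to 140 of the 3′UTR hold 2 of the 4, written as DNA with the pentamers in capitals.
Ifnb1 3′UTR: aaaacagagtttttattaATTTAtaATTTA
Of the other members, Irf5 had 3.75 pentamers per kb, Irf1 2.12 and Irf8 1.32, the remaining ones with any had 0.71 to 1 per kb, and Irf3 had 0.

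Irf1 (chr11:53770014-53778374) encodes an activator that drives interferon-stimulated and antigen presentation genes. In the order of the time points, its normalized counts were 1684, 1886, 2356, 2390, 1388, 384.4, 368.2 and 484.7. The mRNA was high through 45 min and low from 75 min on, with 60 min in between. Against 0 min the ratio was 1.42 at 45 min (95% interval 1.33 to 1.51), 0.824 at 60 min (0.771 to 0.881), 0.219 at 90 min (0.193 to 0.247) and 0.288 at 120 min (0.262 to 0.315). The decline was seen in both library sets, with a ratio of 0.161 from 45 to 75 min (0.141 to 0.183) in the libraries rich in Rn45s and of 0.589 from 30 to 60 min and 0.349 from 60 to 120 min in the others. The highest count was 6.49 times the lowest, a wider range than in 98.2% of the 10492 genes whose normalized counts averaged 100 or more, and whose median range was 1.35-fold. The upstream bases of Irf1 (GRCm38.p6, chr11:53769764-53770013, plus strand) are shown for comparison with Ifnb1.
Irf1: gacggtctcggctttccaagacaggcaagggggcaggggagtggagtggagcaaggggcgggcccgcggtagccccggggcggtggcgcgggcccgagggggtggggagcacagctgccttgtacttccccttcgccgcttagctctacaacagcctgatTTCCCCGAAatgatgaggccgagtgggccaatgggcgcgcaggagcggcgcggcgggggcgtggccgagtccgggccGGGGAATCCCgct
The capitals mark a STAT motif (TTCNNNGAA, in 8.3% of all promoters) at 90 to 82 bases and a kappaB motif at 13 to 4 bases before the start. The kappaB match reads on both strands, and no AANNGAAA was matched. NF-kappaB is a known inducer of Irf1. Its exons overlap 135 bases of an antisense gene without a row in the table.

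Irf2 (chr8:46739745-46847458) encodes a factor that occupies the same elements as IRF1 and mostly represses. Its normalized counts were 889.7, 1019, 940, 1175, 774.7, 842.1, 822.7 and 667 from 0 to 120 min. They moved little and in no steady direction, with a highest-to-lowest ratio of 1.76. The 45 min library was 1.32-fold the 0 min one (1.21 to 1.44) and the 120 min library 0.75-fold (0.683 to 0.822). Its promoter window matched GAAANNGAA 241 bases before the start, within 2 overlapping AANNGAAA matches, a STAT motif at 224 bases and a kappaB motif at 17 bases.

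Irf2bp2 (chr8:126588296-126593986) encodes a zinc finger and RING protein first described as a corepressor bound by IRF2. Over the time course its normalized counts were 10532, 12924, 10305, 7494, 5397, 7335, 7116 and 4523. The lowest values were those at 60 and 120 min, and the 75 and 90 min libraries lay above both. Against 0 min the ratio was 0.512 at 60 min (0.497 to 0.528), 0.676 at 90 min (0.655 to 0.697) and 0.429 at 120 min (0.416 to 0.443). The higher values at 15, 75 and 90 min fell in libraries rich in Rn45s, whose part in the result was not tested. Within the libraries poor in Rn45s the ratio was 0.524 from 30 to 60 min and 0.838 from 60 to 120 min, and within the rich ones it was 0.58 from 15 to 45 min, 0.979 from 45 to 75 min and 0.97 from 75 to 90 min. Lower counts after the first time points were therefore present in each set, while the return at 75 min appeared only between sets. The promoter window of Irf2bp2 matched GAAANNGAA at 141 to 133 bases before the start. An antisense gene without a row in the table overlaps 1039 bases of Irf2bp2 exons. The strand setting of the counting is not stated, so its reads could not be told apart from those of Irf2bp2.

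Irf3 (chr7:44997648-45002848) and Irf5 (chr6:29526130-29541869) encode the factors activated by phosphorylation downstream of TRIF and MyD88. Irf3 had 4318, 3893, 4148, 3948, 4341, 4136, 4075 and 4356 normalized counts from 0 to 120 min, and its ratio at 120 min was 1.01 (0.971 to 1.05). Irf5 had 34466, 33990, 34597, 32348, 33571, 33225, 31829 and 31254, and its ratio at 120 min was 0.907 (0.894 to 0.92). Both were flat, and only 7.47% and 5.18% of the 10492 genes with a mean of at least 100 had a smaller range. Neither promoter window held any of the motifs searched. The Irf5 window (chr6:29526375-29526674) lies inside the gene span given above, and the bases before that span were not searched. Irf5 exons overlap 411 bases of the antisense gene Tnpo3 and Irf3 exons 88 bases of the antisense gene Bcl2l12, and the same limit on telling strands apart applies.

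Irf4 (chr13:30749233-30766981) and Irf8 (chr8:120736358-120756694) encode lymphoid and myeloid factors that bind DNA together with PU.1, and their courses ran in opposite directions. Irf4 had normalized counts of 438, 449.1, 429.9, 333.2, 635.7, 1146, 1258 and 1252 over the time course. The first 4 libraries were low and the last 3 high. Its ratio to 0 min was 0.761 at 45 min (0.657 to 0.88), 1.45 at 60 min (1.29 to 1.63), 2.62 at 75 min (2.34 to 2.93), 2.87 at 90 min (2.58 to 3.2) and 2.86 at 120 min (2.59 to 3.17). Within the 2 library sets the ratio was 3.44 from 45 to 75 min (3.01 to 3.94) and 1.97 from 60 to 120 min, so Irf4 was higher at the later time in both sets.

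Irf8 started at a much higher level, with normalized counts of 10969, 11038, 11781, 10429, 8810, 6906, 6474 and 6098 from 0 to 120 min. Each library from 45 min on was lower than the one before it. Irf8 stood at 0.803 of the unstimulated level after 60 min (0.782 to 0.825) and at 0.556 after 120 min (0.54 to 0.572). Irf8 did not reach a 2-fold difference at any time with size factors, but with total counts its log2 ratio at 120 min was -1.05, past 2-fold. Irf4 was past 2-fold from 75 min on. The upstream bases of the pair (GRCm38.p6, Irf4 chr13:30748983-30749232, plus strand, Irf8 chr8:120736108-120736357, plus strand) are shown because their courses are opposed.
Irf4: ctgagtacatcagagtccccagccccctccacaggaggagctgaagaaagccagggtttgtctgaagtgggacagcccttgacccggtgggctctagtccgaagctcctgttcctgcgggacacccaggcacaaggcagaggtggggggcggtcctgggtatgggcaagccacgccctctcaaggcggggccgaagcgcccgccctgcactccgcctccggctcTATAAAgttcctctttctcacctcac
Irf8: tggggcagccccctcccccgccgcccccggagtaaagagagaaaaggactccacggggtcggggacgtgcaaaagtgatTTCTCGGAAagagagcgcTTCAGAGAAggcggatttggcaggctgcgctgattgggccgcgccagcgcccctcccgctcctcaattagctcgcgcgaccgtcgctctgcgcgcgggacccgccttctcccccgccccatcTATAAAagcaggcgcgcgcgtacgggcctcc
In Irf4 the capitals mark the only match, TATAAA at 26 bases before the start. In Irf8 they mark STAT motifs at 171 and 153 bases and TATAAA at 31 bases, so that both genes have TATAAA at a similar distance, and of the pair only Irf8 has STAT motifs in this window. STAT factors are known to carry interferon gamma signals to the Irf8 promoter. Whether the motifs bear on the course of either gene was not tested.

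Irf9 (chr14:55603985-55610030) encodes the DNA-binding subunit of ISGF3. Its normalized counts were 1572, 1512, 1595, 1726, 1531, 1181, 1247 and 2730 from 0 to 120 min. It was level through 60 min, lower at 75 and 90 min and highest at 120 min. Relative to the unstimulated library Irf9 stood at 0.751 after 75 min (0.692 to 0.816), at 0.793 after 90 min (0.733 to 0.857) and at 1.74 after 120 min (1.64 to 1.84). Within the libraries poor in Rn45s the ratio from 60 to 120 min was 1.78 (1.68 to 1.89), and within the rich ones that from 45 to 75 min was 0.685. The low values at 75 and 90 min both come from libraries rich in Rn45s, whose part in them was not tested. Stat2, which encodes its partner in ISGF3, stood at 0.417 after 120 min (0.374 to 0.465). Irf9 shares 123 exonic bases with Rnf31 on the same strand, and reads from that stretch, where they match both symbols, had been discarded.

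**Figure D2:**
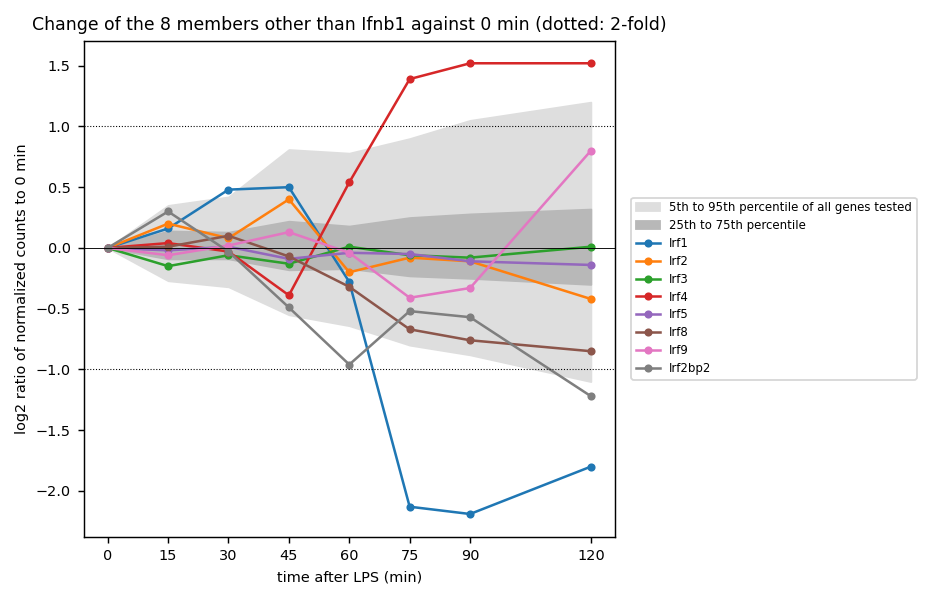
Log2 ratio of normalized counts to 0 min (vertical axis) against time after LPS for the 8 genes other than Ifnb1, over grey bands that span the 25th to 75th and the 5th to 95th percentile of all genes tested. At 120 min Irf4 (1.52) lies above the outer band and Irf1 (-1.80) and Irf2bp2 (-1.22) lie below it, its limits being -1.10 and 1.20.

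A gene was counted as changed where its ratio to 0 min was at least 2-fold and the mean normalized count of both libraries was at least 10. At 45 min none of the 8 members tested passed in either direction, beside 3.33% of all genes higher and 1.31% lower. At 60 min, 1 of 9 was higher (Ifnb1) and 0 were lower, beside 3.53% and 1.99%. At 90 min, 2 were higher (Irf4 and Ifnb1) and 1 lower (Irf1), beside 5.47% and 3.86%. At 120 min, 2 were higher (Irf4 and Ifnb1) and 2 lower (Irf1 and Irf2bp2), beside 6.56% and 6.02% of 12162 genes. Irf2bp2, at 0.512 at 60 min, was just inside the limit and passed it when total counts set the scale. Ifnb1 passed the minimum count only through its high library, so it could only be counted as higher. The median log2 ratio of the members was -0.04 at 60 min and -0.14 at 120 min, against -0.00 and -0.01 over all genes tested.

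The study sorts genes by the time of their first maximum or minimum, with g1 for a first maximum and g2 for a first minimum at 60 min or later and g0 for no change, from a pairwise comparison of libraries that treats the 8 libraries as replicates. The groups were computed here by that rule and not taken from the study, whose group totals differ. By that rule Irf4, Irf9 and Ifnb1 were in g1, Irf1, Irf2bp2 and Irf8 in g2, and Irf2, Irf3 and Irf5 in g0. Over all 23141 genes 5.54% were in g1 and 5.37% in g2. Among the 10492 genes with a mean of at least 100, g0 held 77.8%, g1 9.41% and g2 9.84%. No member had a maximum or minimum before 60 min. Irf9 was in g0 when the libraries were scaled by total counts, and Irf8 and Irf9 were in g0 when a log2 ratio beyond 1 was required.

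To compare levels between genes, counts were divided by length and library total (rpkm, reads relative to the kilobases of unshared sequence and to the library total). At 0 min the order was Irf5 at 132 rpkm (130 to 133), Irf8 at 35.1 (34.5 to 35.7), Irf3 at 19.5 (19 to 20.1), Irf2bp2 at 18.7 (18.4 to 19), Irf9 at 4.63 (4.42 to 4.85), Irf1 at 4.59 (4.39 to 4.79), Irf2 at 3.25 (3.06 to 3.46), Irf4 at 0.83 (0.76 to 0.905) and Ifnb1 at 0, which allows up to 0.033. Irf9 and Irf1 could not be ordered by their counting intervals, and those of Irf3 and Irf2bp2 touched. At 120 min the order was Irf5 at 104 rpkm, Irf3 at 17.1 and Irf8 at 17, Irf2bp2 and Irf9 both at 6.99, Ifnb1 at 3.79, Irf2 at 2.12 and Irf4 at 2.06, and Irf1 at 1.15. The intervals of Irf3 and Irf8 overlapped, as did those of Irf2bp2 and Irf9 and those of Irf2 and Irf4. Irf1 was the lowest of the 9 at 120 min and Ifnb1 the lowest at 0 min. When length was taken from the longest transcript, Irf1 stood at 7.03 rpkm at 0 min, since its 3 transcripts differ in part.

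**Figure D3:**
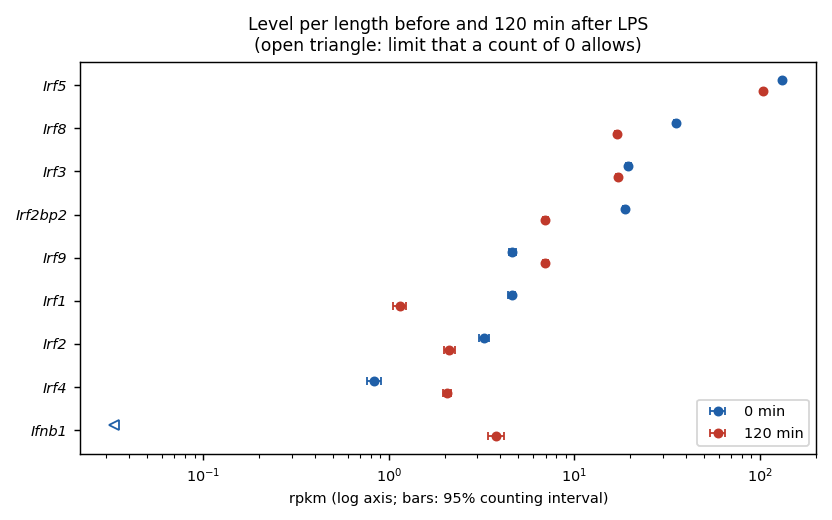
Rpkm (horizontal log axis, bars for the 95% counting interval) of the 9 genes at 0 min and 120 min, in the order of the 0 min level. Irf5 is highest in both libraries (132 and 104), Irf1 goes from 4.59 to 1.15, and the open triangle for Ifnb1 is the limit of 0.033 that a count of 0 allows.

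Shares within the family do not depend on how libraries are scaled. Of the summed rpkm of the 7 interferon regulatory factors, Irf5 made up 66% at 0 min, 71.5% at 75 min and 69.1% at 120 min. Irf8 went from 17.6% to 11.3% and Irf3 from 9.77% to 11.4%. Irf1 held 2.3% in the unstimulated library, 3.4% at 45 min, and 0.587% and 0.763% at 90 and 120 min. Irf4 held 0.416% at 0 min and 1.37% at 120 min, and Irf9 2.32% and 4.65%. Irf1 transcripts were thus more abundant per length than Irf4 transcripts up to 60 min (2.01% against 0.639%) and less abundant from 75 min on (0.589% against 1.22%).

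**Figure D4:**
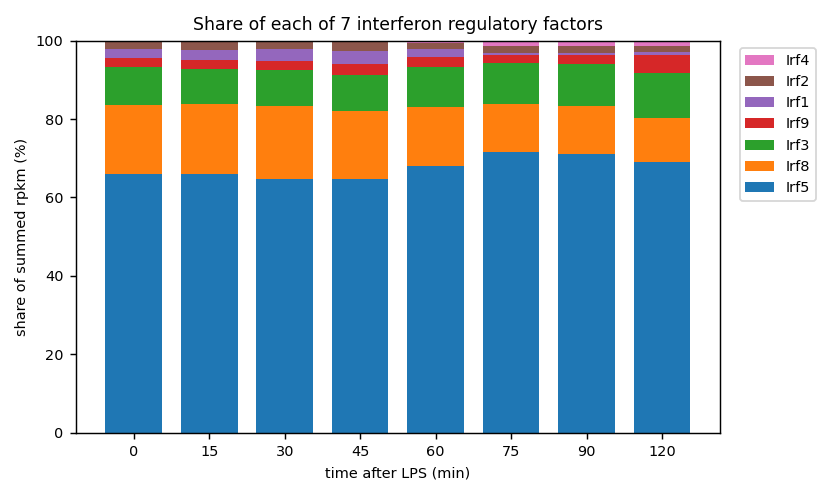
Share of each of the 7 interferon regulatory factors in their summed rpkm (vertical axis, percent) at each time after LPS. Irf5 takes 64.6% to 71.5% in every library, Irf8 shrinks from 17.6% to 11.3%, and the thin bands of Irf1 and Irf4 exchange their order between 60 and 75 min.

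The likeness of the courses was measured as Pearson's correlation coefficient of log2(normalized count + 1) over the 8 libraries, among 1571 genes with a mean of at least 100 and a range of at least 2-fold. The coefficients describe 8 points that share their libraries, and no p is given. With the 0, 30, 60 and 120 min libraries alone, none of the 5 nearest genes was the same for Irf1, Irf2bp2, Irf4, Irf9 or Ifnb1, the members for which neighbours were sought. Between members, Irf1 and Irf8 had 0.95, Irf1 and Irf4 -0.98 and Irf4 and Irf8 -0.96. Closest to Irf1 were Il15ra (0.996), the interleukin-15 receptor alpha chain, Mkl1 (0.985), a coactivator of serum response factor, Polk (0.984), Prtg (0.983) and Arhgef39 (0.980). Il15ra had 849, 706 and 430 normalized counts at 0, 60 and 120 min. Closest to Irf4 were Tmem74 (0.990), Rnf183 (0.989), Irf2bpl (0.989), a relative of Irf2bp2, Ddx28 (0.983) and Adora2b (0.979), an adenosine receptor. Irf2bpl had 9661, 13881 and 20911 normalized counts at the same times, and so ran against Irf2bp2. Closest to Irf2bp2 were Napb (0.970), Zfp455 (0.963), Zfp69 (0.962), Swsap1 (0.959) and Nanp (0.955). Irf9 had no neighbour above 0.912, the nearest being Micall2 (0.912), Pvt1 (0.897), Phf15 (0.881), the DNA exonuclease gene Trex1 (0.878) and Kcnk13 (0.852). Closest to Ifnb1 were Cish (0.997), a cytokine-induced inhibitor of STAT signalling that also started from 0, Stx11 (0.994), Ehd1 (0.994), the transcription factor gene Ets2 (0.994) and Pdlim7 (0.993). Cish reached 87.3 normalized counts at 60 min and 1038 at 120 min.

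Around the members, 72 further genes were listed by role, and 48 had counts high enough to be compared at each time. Of these, 13 were at least 2-fold higher and 1 lower at 60 min, with a median log2 ratio of 0.27, and 17 were higher and 3 lower at 120 min, with a median of 0.46. Over all genes tested, 3.53% were higher and 1.99% lower at 60 min and 6.56% and 6.02% at 120 min, so that less than 1 gene would be called in each direction in a list of 6 to 12 genes at these shares. In the signalling list, which leads to the phosphorylation of IRF3 and IRF5, 3 of 12 were higher at 120 min and 1 was lower. Ticam1, which encodes TRIF, was 7.27-fold higher (6.8 to 7.79), Ikbke, which encodes IKK epsilon, 8.12-fold (7.75 to 8.51) and Tank 2.47-fold (2.4 to 2.54). Ticam2, which encodes TRAM, the adaptor between TLR4 and TRIF, was lower, with a ratio of 0.383 (0.34 to 0.432). These 4 genes passed 2-fold, whereas the ratio of Irf3 was 1.01.

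Of 6 genes of the interferon receptor and ISGF3, 0 were higher and 1, Stat2, was lower at 120 min. Of 6 brakes on the pathway, 2 were higher. Socs3 was 11.4-fold higher at 60 min (10.8 to 12.1) and 50.7-fold at 120 min (48.2 to 53.4), and Socs1 3.23-fold at 120 min (2.16 to 4.95). Trim21, a ubiquitin ligase that acts on several interferon regulatory factors, had a ratio of 0.433 at 60 min (0.383 to 0.489) and 0.515 at 120 min. Of 10 DNA-binding partners and coactivators compared, 3 were higher at 120 min, namely Rela (2.2-fold), Nfkb1 (2.49-fold) and Crebbp (2.21-fold). Jun was 14.1-fold higher at 60 min (13.7 to 14.5) and had a ratio of 0.736 at 120 min. Irf2bpl was the 1 gene of 3 other IRF genes compared that was higher at 120 min (2.16-fold), and Irf7, the interferon-induced member of the family, was at 1 at 60 min (0.841 to 1.19) and 1.74 at 120 min (1.49 to 2.02). Irf9, like Irf7 known as an interferon-stimulated gene, was also at 1.74.

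Among target genes of the interferon regulatory factors and of interferon, large ratios were common. Of 11 compared, 7 were higher at 60 min and 8 at 120 min, with a median log2 ratio of 1.44 and 2.76. The chemokine gene Cxcl10 had 201, 5033 and 28895 normalized counts at 0, 60 and 120 min, the last of which is 144-fold (126 to 164). Ccl5 was 85.6-fold higher at 120 min (54.6 to 142), Isg15 25.5-fold (19.6 to 33.8), Oasl1 16.3-fold (15.4 to 17.3) and Gbp2 11.1-fold (5.42 to 26.5). Ifit1 was 6.78-fold higher, Rsad2 6.37-fold and Mx2 4.23-fold. At 60 min Cxcl10 was 25-fold higher (22 to 28.6). Ifit2 was the only gene of the list that was lower, with 692.1 normalized counts before stimulation and 170.2 after 120 min, and thus with a ratio of 0.246 (0.21 to 0.287). The other interferon genes, 20 in the table, were not high enough to be compared in any of these libraries. Ifnb1 was thus the only interferon gene that passed the minimum count at 60 and 120 min. Reads matching more than 1 gene symbol had been discarded, and some of these genes share sequence. Of the 58-base stretches of Ifna1, 295 were shared with other genes and 218 were not, against 0 and 693 for Ifnb1. Ifng, also among the 20, had 0 shared and 1151 unshared. How far this lowered their counts was not tested.

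**Figure D5:**
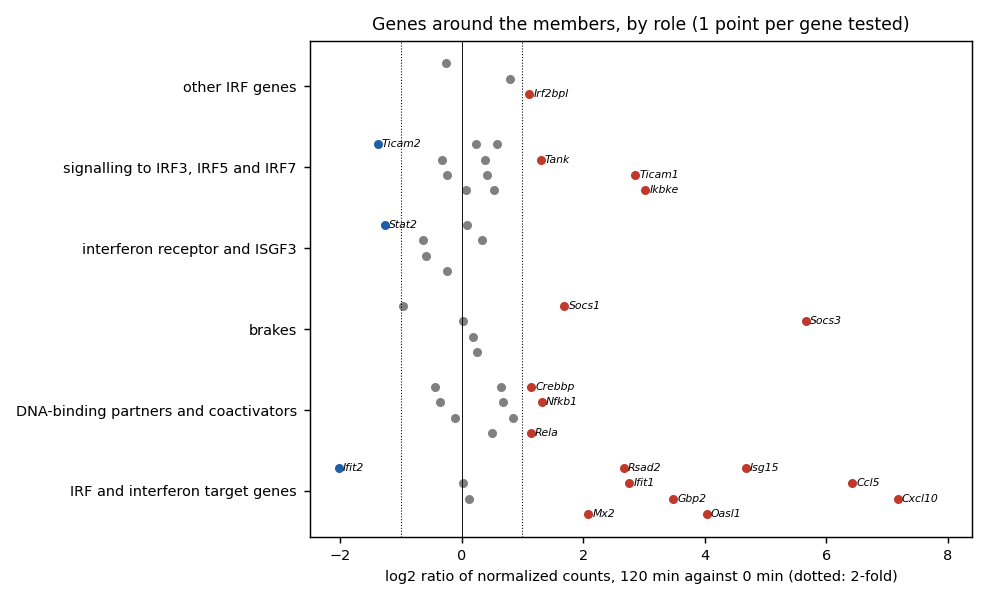
Log2 ratio of normalized counts at 120 min against 0 min (horizontal axis) for the 48 genes compared, 1 point per gene, in rows by role, with genes beyond 2-fold named. Red points are higher and blue points lower; the target genes reach 7.17 (Cxcl10), while the receptor and ISGF3 row holds no red point.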

How the data were processed

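RNA of 8 RAW264.7 samples was purified, depleted of ribosomal RNA with Ribo-Zero and made into libraries with a directional kit. The authors mapped 58-base reads with Bowtie (version not given in the sources used here) to RefSeq transcripts (UCSC mm10 annotation) with up to 2 mismatches and discarded reads matching more than 1 gene symbol. The submitters' processing notes name CASAVA 1.8.2 and DESeq 1.10.1. The deposited values are raw read counts per gene symbol. The labels give the RNA fraction as cytoplasmic, the molecule as total RNA. The 2 rows without an accession, taken to be the spike-in transcripts, were left out, leaving 23141 genes.

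Counts were divided by median-of-ratios size factors (0.71 to 1.23). With each time point as a group of its own, a quasi-likelihood fit has no residual degrees of freedom, and a model with a trend was not run. The pairwise comparison behind the grouping is used as a description. Ratios carry an exact conditional binomial and rpkm values an exact Poisson 95% interval. Rpkm lengths are unshared 58-mers of GENCODE vM21 transcripts matched by accession. The grouping used a blind dispersion of 0.0287 plus 0.853 divided by the mean, a log2 limit of 0.5 and an unadjusted p limit of 0.05. Its test on simulated data used changes larger than the range of any member except Irf1 and Ifnb1, and a smaller dispersion. That test therefore does not cover smaller changes. Promoters are from RefSeq (GRCm38.p6), matched for all 9 members by symbol (12 promoters). The first promoter is shown for Ifnb1, Irf1, Irf4 and Irf8, and all motif positions given are in first promoters. None of the motifs was matched in either Irf9 window or in the other windows of Irf1 and Irf8. Alternatives were total counts with and without Rn45s, edgeR 4.0.16 TMM factors (R 4.3.3), other limits and lengths, and, added later, the spike-in scale, total counts without Rn45s for the grouping and the shorter core AANNGAAA. Scripts ran in Python 3.11.15 with scipy 1.17.1, numba 0.67.0, pandas 2.3.3 and numpy 2.4.6. Named genes are the members and list genes beyond 2-fold at 60 or 120 min. The 5 genes most like each member whose range was at least 2-fold are also named. Irf7 and Ifit3 were named after their values were seen. Ifna1, Ifng, Ifnk, Ifna13 and Ifnab, which were not compared, the cell type markers and the genes overlapping members were named outside these rules. Members and lists were chosen with earlier results of these data known. Microarray data of the study were not analysed here. Some results are not reported here.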

Additional observations from a re-analysis of the deposited data

How the results depend on the processing

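No result reversed a called direction. At 60 min, 0 members were lower with size factors and the 2-fold limit, whereas 1 was lower with total counts, with total counts without Rn45s, on the spike-in scale and with the looser log2 limit of 0.5, this being Irf2bp2, whose log2 ratio was -0.96 with size factors and -1.06, -1.06 and -1.29 on these 3 scales; 2 members were higher with the log2 limit of 0.5. At 120 min, 3 members in place of 2 were lower with total counts, with and without Rn45s, since Irf8 was then at -1.05 and -1.04. The listed genes lower at 60 min numbered 2 with total counts, 2 without Rn45s, 2 with TMM factors, 3 on the spike-in scale and 6 with the log2 limit of 0.5, against 1, and those lower at 120 min numbered 6 with that limit, against 3. The near-zero log2 ratio of Irf3 changed sign at 60 and 120 min on all 4 other scales. Total counts lowered every log2 ratio by up to 0.33 (at 75 min), and the spike-in scale lowered those at 60 min by 0.33. Irf9 left g1 for g0 with total counts, with and without Rn45s, on the spike-in scale, with Benjamini-Hochberg adjustment and with a log2 limit of 1, and Irf8 left g2 for g0 with the last 2; the other members kept their group. Of the 5 genes most like a member, unlogged counts kept 3 for Irf1, 2 for Irf4 and 0 for Ifnb1, and the 0, 30, 60 and 120 min libraries alone kept 0 for each of Irf1, Irf2bp2, Irf4, Irf9 and Ifnb1. No library could be left out as a replicate, since each time point has 1. No paired analysis was possible because each time point has 1 library.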

Other observations

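The interferon target genes Ifit1, Ifit2 and Ifit3 differed in direction. Ifit1 had 47.91 normalized counts at 0 min, 123.8 at 60 min and 325 at 120 min. Ifit2 started highest, at 692.1, and stood at 486.2 and 170.2. Ifit3 had 16.25, 10.68 and 17.83, a ratio of 1.1 at 120 min (95% interval 0.567 to 2.14), which counting error covers. Among the subunits of ISGF3, Irf9 was 1.74-fold higher at 120 min while Stat2 had 929.9 normalized counts at 0 min, 468.4 at 60 min and 388.2 at 120 min. Of the other interferon genes, Ifnk had 1 to 6 reads in 7 libraries and 6 at 120 min, and Ifna13 and Ifnab had 1 read in 1 library each.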
